A study of Mus musculus with 20 samples.

Results

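The genes described are 6 that mark the osteocyte, the cell that lives inside mineralised bone: *Dmp1*, *Phex*, *Mepe*, *Sost*, *Fgf23* and *Pdpn*. They were picked by name, 6 of the 54532 genes counted, and all 6 passed the filter on low counts. These genes and the gene lists below were chosen with earlier results of these data known. RNA sequencing was performed on temporomandibular joint (TMJ) tissue, the jaw joint, taken as condylar heads with a portion of the bone beneath the cartilage. Every animal was Acan-Cre;Loxl2 fl/fl, carrying *Loxl2* alleles flanked by loxP sites together with a Cre recombinase that tamoxifen activates and the aggrecan (*Acan*) promoter drives, so that deletion is directed to aggrecan-expressing cells. The 8 Control mice received vehicle and the 12 LOXL2_KO mice (here knockout) received tamoxifen from 6 months of age, and tissue was collected 4 months later. The drug and the deletion cannot be told apart in this design, and the strain was not given in the sources used here.

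Osteocytes descend from osteoblasts that become enclosed in the matrix they lay down. Young, embedding osteocytes are known for podoplanin, then for the matrix protein DMP1 and the peptidase PHEX, whereas mature osteocytes are known for MEPE, sclerostin (the product of *Sost*) and the phosphate hormone FGF23. Together these products set local mineralisation, renal phosphate loss and, through sclerostin, the Wnt signal that osteoblasts receive.

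Total counts ranged from 14177222 to 23795467 in the Control libraries and from 11153820 to 27045668 in the knockout libraries. *Loxl2* itself, the target of the deletion, averaged 64.5 CPM in Control (SD 30.9, n = 8; CPM are counts scaled to library size) and 101 CPM in knockout (SD 26.9, n = 12), which is no decrease (log2 fold change 0.64, SE 0.28; edgeR adjusted p = 0.101). Reads were summed over the whole gene, including any from transcripts without the deleted exons, so every direction below is that of the labels. Genes of cells other than osteocytes also moved. All 10 osteoclast genes tested were called higher in the libraries labelled knockout (edgeR), beside 12% of all genes. Their summed levels were 183.3 to 1485 CPM in Control and 664.5 to 8093 CPM in knockout. Of 10 skeletal muscle genes edgeR called 3 lower and 0 higher, beside 11% and 12% of all genes. DESeq2 called 5 of these muscle genes, beside 22.3% of all genes. The median log2 fold change of the 10 was −0.57. The muscle sum ran from 50170 to 162800 CPM in Control and from 36180 to 90170 CPM in knockout. Cartilage genes were nearly missing from Control 8, with 22 *Col2a1* counts, and were low in Control 6 and Knockout 5. Tooth genes were low, at most 10.85 CPM summed over 7 genes: *Dspp*, of dentin, had no count in 17 of 20 libraries and *Amelx*, of enamel, none in 12, although Control 1 held 225 *Amelx* counts. By the study's methods, both sexes were present in equal numbers in each group. A sum of at least 100 Y-linked counts was found in 3 of 8 Control and 6 of 12 knockout libraries, and the rest held at most 10.

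*Dmp1* and *Phex* rose in the libraries labelled knockout, 3.46-fold and 3.83-fold, while *Mepe*, *Pdpn*, *Sost* and *Fgf23* did not pass the test. Thus 2 of the 6 osteocyte genes were called higher and 0 lower, against a background of 12% of all 15984 genes tested called higher, 11% called lower and 23% called either way. The median log2 fold change of the 6 was 0.74, beside −0.02 for all genes tested. DESeq2 called the same pair, with adjusted p = 0.00244 for *Dmp1* and 0.00481 for *Phex*, where it called 22.3% of genes. Total bone signal was itself higher in these libraries, and with a bone score in the model none of the 6 passed the test (edgeR, below).

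The windows upstream of 4 of these genes are shown first, *Dmp1* and *Phex* because they moved together and *Mepe* and *Sost* because they varied together among libraries. Sequences are from RefSeq on GRCm38.p6, 250 bases ending just before the annotated start site, 5′ to 3′ on the strand of the gene. Capitals mark TGTGGT, the core motif bound by RUNX factors, on either strand. The *Dmp1* window lies on the plus strand at chr5:104202367-104202616, that of *Phex* on the minus strand at chrX:157415287-157415536, that of *Mepe* on the plus strand at chr5:104325079-104325328, and that of *Sost* on the minus strand at chr11:101967016-101967265.
Dmp1: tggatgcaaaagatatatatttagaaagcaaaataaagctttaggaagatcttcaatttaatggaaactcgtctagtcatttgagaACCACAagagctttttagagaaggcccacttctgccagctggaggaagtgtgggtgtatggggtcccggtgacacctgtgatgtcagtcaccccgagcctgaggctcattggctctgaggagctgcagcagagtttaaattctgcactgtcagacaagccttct
Phex: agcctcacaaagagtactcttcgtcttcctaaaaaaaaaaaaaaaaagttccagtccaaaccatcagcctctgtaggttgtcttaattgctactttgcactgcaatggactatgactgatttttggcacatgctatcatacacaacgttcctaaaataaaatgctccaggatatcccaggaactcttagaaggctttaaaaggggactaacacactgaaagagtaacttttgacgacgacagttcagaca
Mepe: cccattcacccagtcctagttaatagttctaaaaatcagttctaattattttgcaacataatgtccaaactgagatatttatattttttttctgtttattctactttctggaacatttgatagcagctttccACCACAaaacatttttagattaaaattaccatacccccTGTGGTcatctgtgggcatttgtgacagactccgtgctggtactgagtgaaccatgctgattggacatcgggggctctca
Sost: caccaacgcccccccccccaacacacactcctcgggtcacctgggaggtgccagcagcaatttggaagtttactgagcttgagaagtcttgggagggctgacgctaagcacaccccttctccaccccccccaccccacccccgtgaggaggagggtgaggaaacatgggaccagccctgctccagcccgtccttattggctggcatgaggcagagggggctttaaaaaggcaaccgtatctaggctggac
The motif was searched in windows of 300 bases, which add 50 bases after the start. It was present in 2 of the 7 windows of the 6 genes (*Dmp1* has an additional upstream start), beside 16.8% of 32851 mouse windows. *Dmp1* held 1 match 164 bases before the start, and *Mepe* held 2, at 118 and 80 bases before it. The motif of MEF2 factors was found in 0 of the 7 windows and in 0.557% of all windows. A match is a run of letters and not a measured binding site.

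*Dmp1* (ENSMUSG00000029307, chr5:104202613-104214102, plus strand, GRCm38) encodes dentin matrix protein 1, an acidic SIBLING phosphoprotein of the bone matrix whose loss is known to raise FGF23. Control libraries ranged from 11.2 CPM to 79.0 CPM around a median of 39.9 CPM, and knockout libraries from 13.8 CPM to 359.5 CPM around a median of 131 CPM. Of the 12 knockout libraries, 9 exceeded every Control library, whereas Knockout 4, 5 and 7 fell within the Control range. Knockout 1 was the highest, and Control 6 and Control 8 were the lowest. Control averaged 39.6 ± 23.0 CPM (SD, n = 8) and knockout 137 ± 96.2 CPM (n = 12), and the log2 fold change of 1.79 passed the test (SE 0.49; edgeR adjusted p = 0.0133). More RNA per cell and more osteocytes in a piece of tissue cannot be told apart in bulk libraries, here or for any gene below.

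*Phex* (ENSMUSG00000057457, chrX:157162075-157415312, minus strand) encodes the membrane peptidase lost in X-linked hypophosphatemia. Its Control values ran from 1.07 CPM through a median of 4.91 CPM to 19.3 CPM, and its knockout values from 1.29 CPM through 25.5 CPM to 60.3 CPM. The groups overlapped, with 7 of 12 knockout libraries above the highest Control library, Control 5, which stood apart from the next one at 7.96 CPM. The 3 lowest libraries, Control 8, Knockout 5 and Control 6, were also the 3 lowest for *Dmp1*. The mean rose from 6.23 ± 5.81 CPM (SD, n = 8) to 23.9 ± 16.6 CPM (n = 12), or by 1.94 on the log2 scale (SE 0.57; edgeR adjusted p = 0.0187). *Phex* is X-linked, and with a Y-linked score as covariate its log2 fold change was 1.92 (adjusted p = 0.0145). A processed pseudogene, *Gm15172*, lies within the *Phex* locus and reached at most 3 counts in any library.

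The calls of *Dmp1* and *Phex* were lost with the osteoclast score as a covariate, where the log2 fold changes were −0.31 and −0.07 (edgeR adjusted p = 0.935 and 0.986), and with the muscle score, where they were 0.92 and 0.94 (adjusted p = 0.204 and 0.233). With each library left out in turn, *Dmp1* stayed between 1.56 and 2.01 and *Phex* between 1.72 and 2.44, and both passed the test in every case. The part of osteoclast and muscle content in either difference was not tested.

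*Mepe* (ENSMUSG00000053863, chr5:104325329-104338611, plus strand) lies in the same SIBLING gene cluster as *Dmp1* and encodes matrix extracellular phosphoglycoprotein, whose ASARM peptide is known to inhibit mineralisation. Control values ran from 0.153 CPM, which is 2 counts in Control 8, through a median of 5.84 CPM to 30.4 CPM in Control 7. Knockout values ran from 1.18 CPM through 18.5 CPM to 35.9 CPM. Only 2 of 12 knockout libraries, Knockout 3 and 12, lay above Control 7, although 9 of 12 lay above the Control median. At 0.95 (SE 0.58), the log2 fold change did not pass the test (edgeR adjusted p = 0.234). Without Control 7 it was 1.59 and passed (adjusted p = 0.0489), which makes 3 of 6 genes called.

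*Sost* (ENSMUSG00000001494, chr11:101962458-101967015, minus strand) encodes sclerostin, the secreted inhibitor of Wnt signalling through LRP5 and LRP6. It had no count in Control 8, where 3 counts would be 0.23 CPM, a median of 8.47 CPM in Control and 44.1 CPM in Control 7, with the next Control library at 11.8 CPM. In knockout it ran from 1.64 CPM in Knockout 2 through a median of 5.72 CPM to 28.9 CPM in Knockout 10. Knockout values lay entirely within the Control range, and only 5 of 12 exceeded the Control median. Knockout 3, 10 and 12 formed the upper end at 25.2 CPM, 28.9 CPM and 28.7 CPM. The means were 11.9 ± 13.5 CPM (SD, n = 8) and 11.02 ± 10.5 CPM (n = 12), which differed by −0.11 on the log2 scale (SE 0.63; edgeR adjusted p = 0.919). This SE leaves room for a difference of either sign, and without Control 7 the value turned to 0.60 (adjusted p = 0.518).

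*Fgf23* (ENSMUSG00000000182, chr6:127072902-127081408, plus strand) encodes the hormone by which bone lowers renal phosphate reabsorption, and it was barely detected. Control libraries held 1 to 39 counts, or 0.0691 CPM to 2.53 CPM around a median of 0.887 CPM. Knockout libraries held 0 to 32 counts, or 0 to 2.34 CPM around a median of 0.498 CPM, with Knockout 4 at 0, where 3 counts would be 0.137 CPM. Control 7 and Knockout 8 were the highest of their groups, and 3 of 12 knockout libraries exceeded the Control median. On the log2 scale the groups differed by −0.57 (SE 0.59; edgeR adjusted p = 0.509), a difference not detected with these few counts.

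*Pdpn* (ENSMUSG00000028583, chr4:143267431-143299564, minus strand) encodes podoplanin, a membrane mucin of embedding osteocytes that lymphatic endothelium and many fibroblasts also carry. Control values ran from 4.98 CPM through a median of 9.84 CPM to 15.2 CPM, and knockout values from 8.59 CPM through 11.6 CPM to 28.4 CPM. Only Knockout 1, 4, 5 and 7 lay above the Control range. The means were 10.2 ± 3.57 CPM (SD, n = 8) and 14.8 ± 6.98 CPM (n = 12), and their log2 fold change of 0.53 did not pass the test (SE 0.26; edgeR adjusted p = 0.139). Knockout 4, 5 and 7, the 3 highest for *Pdpn*, together with Control 6 also had the highest sums over 7 fibroblast and synovial lining genes, 2124 to 3974 CPM, while no other library passed 819.1 CPM. Of those 7 genes edgeR called 2 higher and 0 lower, beside 12% and 11% of all genes. DESeq2 called 4 in either direction, beside 22.3% of all genes. Their part in the *Pdpn* values was not tested. Of 6 lymphatic genes, 0 were called by edgeR or DESeq2, beside 23% and 22.3% of all genes. Unadjusted, 0 had an edgeR p under 0.05, beside 5910 of the 15984 genes tested.

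**Figure D1:**
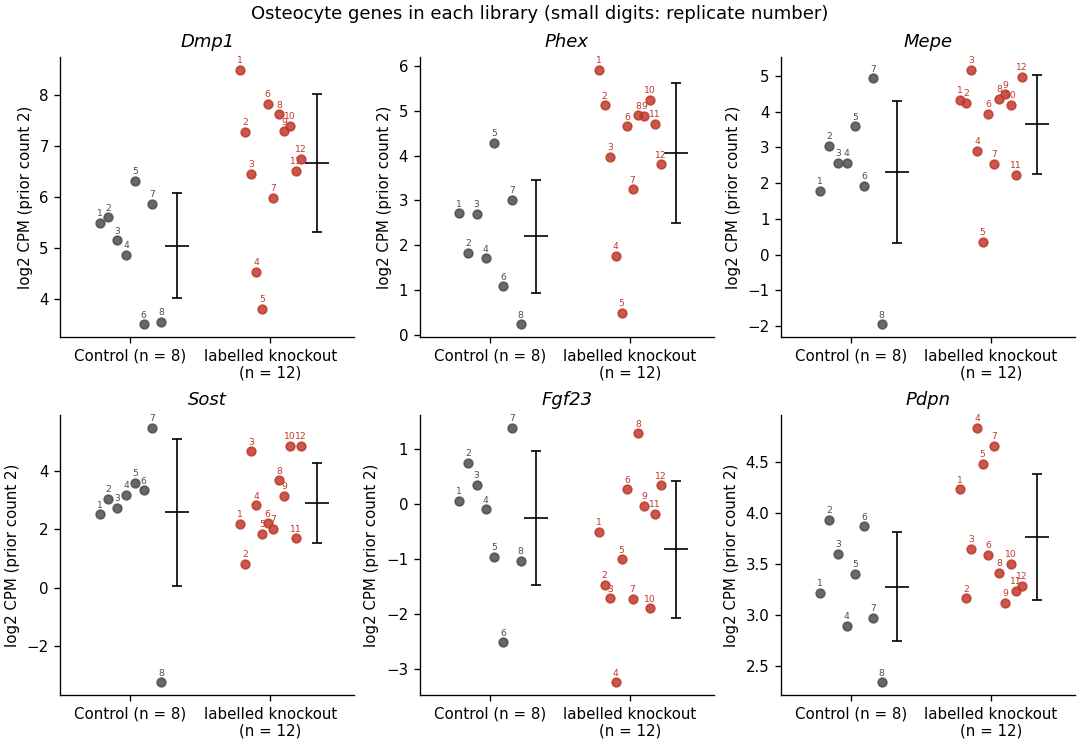
Level of each osteocyte gene in every library (vertical axis, log2 CPM with a prior count of 2; horizontal axis, group), with points for libraries, digits for replicate numbers, and bars for the mean ± SD. *Dmp1* and *Phex* sit higher in most knockout libraries with Knockout 4, 5 and 7 among the Control values. For *Phex* Knockout 3 and 12 also lie under the highest Control library, and *Sost* and *Fgf23* overlap throughout.

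Levels were compared between genes per kilobase of exon. In Control, *Dmp1* was the most abundant at 14.3 ± 8.32 CPM per kb (SD, n = 8), followed by *Sost* at 5.74 ± 6.54, *Pdpn* at 5.61 ± 1.97 and *Mepe* at 5.15 ± 5.61 CPM per kb, which did not differ beyond their spread. *Phex* at 0.990 ± 0.924 and *Fgf23* at 0.546 ± 0.434 CPM per kb were lowest. In knockout the order was *Dmp1* at 49.6 ± 34.8, *Mepe* at 9.95 ± 6.32, *Pdpn* at 8.12 ± 3.84, *Sost* at 5.33 ± 5.06, *Phex* at 3.8 ± 2.63 and *Fgf23* at 0.371 ± 0.360 CPM per kb (n = 12). From *Mepe* to *Phex*, each neighbour lay within the spread of the next.

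To set these values beside total bone, a bone score was formed as the mean log2 CPM of 12 osteoblast and bone matrix genes, none of them among the 6. The score was 6.15 ± 0.98 (SD, n = 8) in Control and 7.70 ± 0.99 (n = 12) in knockout, a difference of 1.55 by an exact two-sided permutation test (p = 0.00341, 0.0137 after adjustment over 8 scores). Summed levels of the 12 genes ran from 2174 to 20950 CPM in Control and from 6984 to 60150 CPM in knockout, so that the groups overlapped. Type I collagen made up most of these sums. Without *Col1a1* and *Col1a2* they ran from 205 CPM (Control 8) to 2040 CPM (Control 5), and from 329 CPM (Knockout 5) to 4207 CPM (Knockout 1). Of the 12 genes, 8 were called higher and none lower (edgeR), with a median log2 fold change of 1.64, beside 12% and 11% of all genes. With the muscle score as a covariate 2 of the 12 were called higher. With the osteoclast score 0 were, as were 0 of all genes tested. Type I collagen led, with *Col1a1* at 3240 ± 2965 CPM in Control and 18300 ± 9541 CPM in knockout (log2 fold change 2.50, SE 0.45, edgeR adjusted p = 0.00144), followed by *Bglap*, which encodes osteocalcin, at 2.22 (SE 0.58, adjusted p = 0.0101, and 0.0572 with the muscle score) and *Col1a2* at 2.19 (SE 0.42, adjusted p = 0.00204). *Bglap* and *Bglap2* are near-identical copies whose reads may have been split. The values of *Dmp1* and *Phex* lay within the span of the 8 bone genes called, from 1.40 for *Sp7*, an osteoblast transcription factor, to 2.50.

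Across libraries of one group, *Dmp1* and *Phex* followed the bone score closely. For *Dmp1* Pearson's r was 0.94 in Control (exact permutation p = 0.00236, 0.00942 adjusted over 12 relations; Spearman's rho 0.71, p = 0.0576) and 0.93 in knockout (permutation p = 4e-05, adjusted 0.00024; rho 0.84, p = 0.00121). Without the 2 libraries farthest from the median score, r was 0.73 and 0.77. For *Phex* r was 0.87 in Control (exact permutation p = 0.006, adjusted 0.018, and rho 0.64 with permutation p = 0.0962). In knockout it was 0.97 (permutation p = 2e-05, adjusted 0.00024, and rho 0.90 with permutation p = 0.00013). Without the 2 farthest libraries r was 0.64 and 0.90. In Control the rank correlations of both did not pass, and the 2 farthest libraries, Control 6 and 8, were also the Control libraries lowest in cartilage genes, and Control 8 was the highest in muscle genes.

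For the other osteocyte genes Pearson's r did not pass the test in Control, and in knockout it passed for *Mepe* and *Pdpn* alone. Those knockout values shrank without the 2 farthest libraries, as r had for *Dmp1* and *Phex*. *Mepe* gave r = 0.70 in each group (exact permutation p = 0.0515, adjusted 0.0883, in Control; permutation p = 0.0143, adjusted 0.0286, in knockout; rho 0.48, p = 0.243, and rho 0.43, p = 0.168), but r was 0.08 and 0.17 without the 2 farthest libraries, so the relation rests on those libraries. *Sost* gave r = 0.60 in Control (exact permutation p = 0.13, adjusted 0.196; rho 0.19, p = 0.665) and 0.01 in knockout (permutation p = 0.97, adjusted 0.97; rho −0.08, p = 0.817), which became −0.11 and −0.36. *Fgf23* gave r = 0.48 in Control (exact permutation p = 0.226, adjusted 0.271; rho 0.31, p = 0.462) and 0.41 in knockout (permutation p = 0.191, adjusted 0.254; rho 0.38, p = 0.228), which became −0.70 and 0.25. *Pdpn* ran against bone in knockout, with r = −0.69 (permutation p = 0.0124, adjusted 0.0286; rho −0.60, p = 0.0433, adjusted 0.173), which became −0.43 without Knockout 4 and 5, and r = 0.34 in Control (exact permutation p = 0.404, adjusted 0.441; rho 0.38, p = 0.36), which became 0.35. Whether the relations differ between groups or between genes was not tested.

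**Figure D2:**
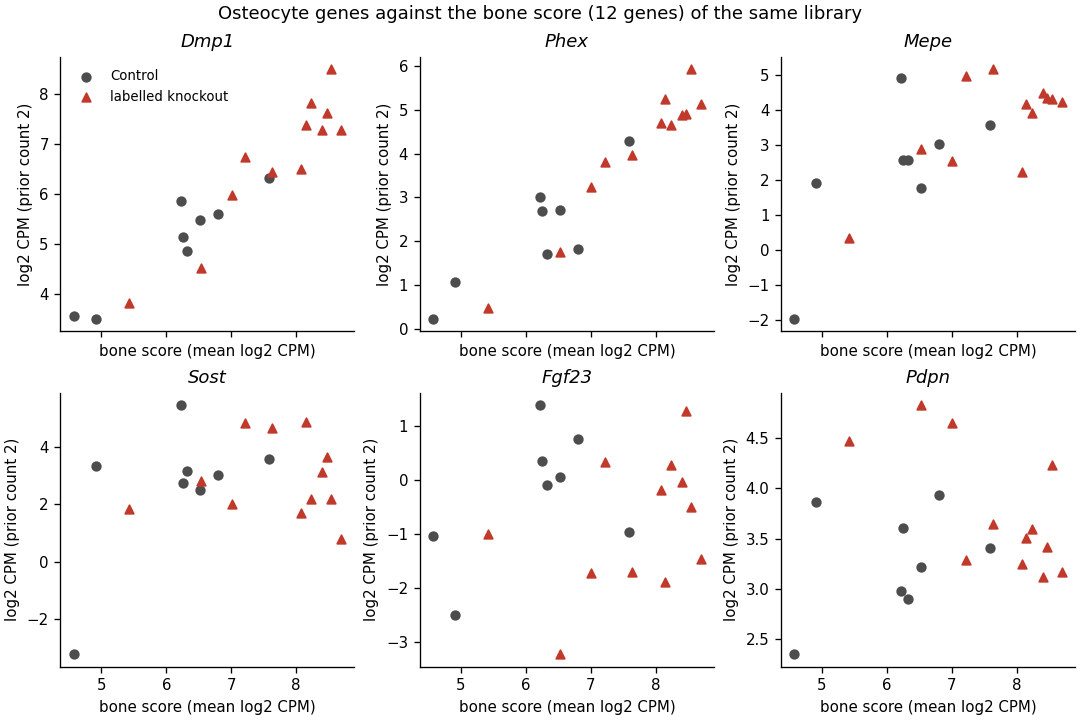
Level of each osteocyte gene (vertical axis, log2 CPM) against the bone score of the same library (horizontal axis, mean log2 CPM of 12 bone genes), with circles for Control and triangles for knockout. *Dmp1* and *Phex* form a single band along the score in both groups (r of 0.87 to 0.97), whereas *Sost* and *Fgf23* scatter.

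With the bone score as a covariate in the same edgeR model, no group difference was detected for any of the 6 genes. Only *Dmp1* and *Phex* had been called without it. *Dmp1* stood at −0.17 on the log2 scale (SE 0.28; edgeR adjusted p = 0.817) and *Phex* at −0.32 (SE 0.31, adjusted p = 0.644). It was −0.33 for *Mepe* (SE 0.70, adjusted p = 0.857) and −0.46 for *Sost* (SE 0.87, adjusted p = 0.839). The values farthest from 0 were −1.57 for *Fgf23* (SE 0.78, unadjusted p = 0.0558, adjusted p = 0.313) and 0.83 for *Pdpn* (SE 0.29, unadjusted p = 0.00864, adjusted p = 0.143). In this fit 0.557% of all genes were called, 0.457% higher and 0.1% lower, so 0 of 6 is near that background. Unadjusted, 1 of the 6 had a p under 0.05 (*Pdpn*), as had 2644 of the 15984 genes tested, so 1 of 6 is also near the background. DESeq2 with the same covariate called 0 of 6, beside 3.16% of all genes. The SEs of *Mepe*, *Sost* and *Fgf23*, 0.70 to 0.87, leave room for a difference of either sign. The score differs between the groups, and the part of the difference that the score takes up cannot be told apart from the label. Nor does the score make every bone gene equal: *Col1a1* and *Col1a2*, which form part of it, stayed higher (1.17 and 0.87, adjusted p = 0.0296 and 0.027), while *Ibsp* stood at −1.24 (adjusted p = 0.0609). With a score that leaves both collagens out, *Dmp1* stood at 0.08.

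**Figure D3:**
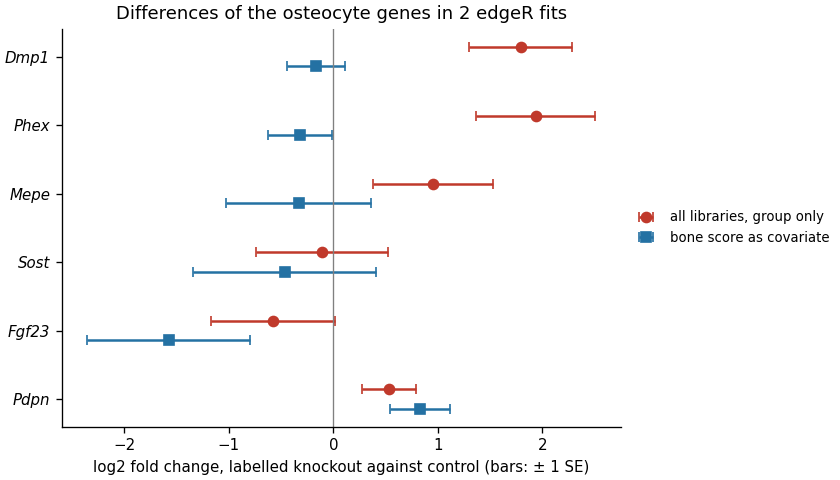
Log2 fold change of each osteocyte gene, knockout against Control (horizontal axis, bars for ± 1 SE), with circles for the model with group alone and squares for the model with the bone score added. The values of *Dmp1* and *Phex* move from 1.79 and 1.94 to −0.17 and −0.32, those of *Fgf23* and *Pdpn* move away from 0.

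Ratios within a library need no scaling and are given as descriptions. Per 1000 CPM of the 10 bone genes other than type I collagen, *Dmp1* ran from 29.8 through a median of 40.5 to 56.4 in Control and from 31.3 through 49.7 to 85.5 in knockout. Per 1000 CPM of all 12 bone genes the medians ran the other way, from 5.61 (range 3.77 to 10.6) in Control to 3.57 (range 1.33 to 6.61) in knockout. Per 100 *Dmp1* counts, *Phex* ran from 7.18 through 14.2 to 24.5 counts in Control and from 9.35 through 15.9 to 28.7 counts in knockout and the groups overlapped almost wholly. *Mepe* had medians of 16.8 and 10.7 counts per 100 *Dmp1* counts, within ranges of 1.32 to 52.6 and 5.09 to 41.3. *Sost* had medians of 17.6 and 6.30, within ranges of 0 to 88.9 and 1.06 to 30.3. *Fgf23* had medians of 3.09 and 0.40, within ranges of 0.517 to 4.37 and 0 to 2.85. *Pdpn* had medians of 28.4 and 7.88, within ranges of 13.3 to 130 and 5.19 to 160. The medians of *Mepe*, *Sost*, *Fgf23* and *Pdpn* relative to *Dmp1* were therefore lower in knockout, with overlapping ranges, and this was not tested. *Dmp1*, the divisor, was itself called higher in knockout, so any gene that rose less has a lower ratio.

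**Figure D4:**
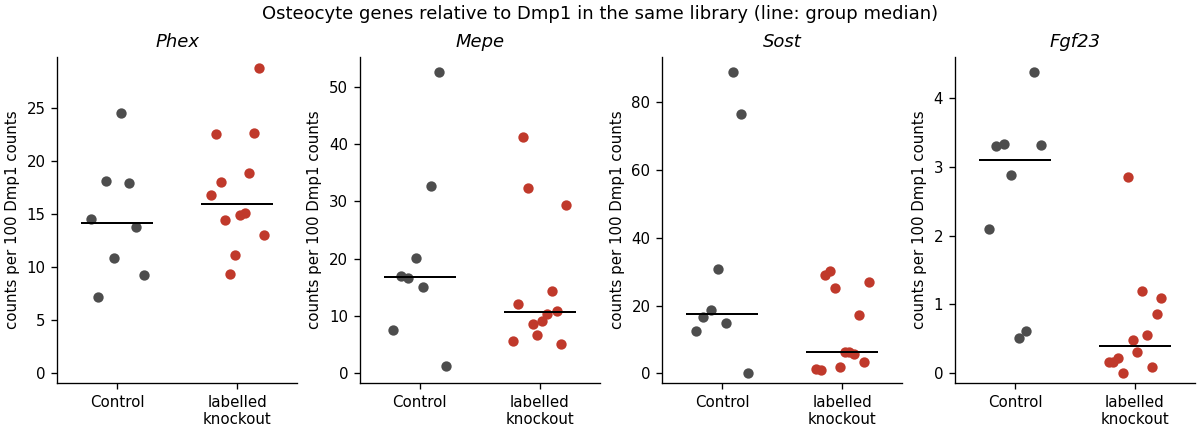
Counts of *Phex*, *Mepe*, *Sost* and *Fgf23* per 100 *Dmp1* counts of the same library (vertical axis, one point per library, line for the group median). *Phex* medians lie at 14.2 in Control and 15.9 in knockout, while those of *Sost* lie at 17.6 and 6.30 and those of *Fgf23* at 3.09 and 0.40.

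Likeness among the 6 genes was measured as Pearson's r of log2 CPM over the 20 libraries after removal of the group means. These points share their library and its bone content, so the values are descriptions. *Dmp1* and *Phex* were the most alike (r = 0.946). *Mepe* was closest to *Sost* (r = 0.807) and then to *Dmp1* (r = 0.712), whereas *Sost* and *Dmp1* were little alike (r = 0.33). Control 8 was the lowest library for both *Mepe* (2 counts) and *Sost* (0 counts), and its part in their likeness was not tested. *Fgf23* was closest to *Dmp1* (r = 0.562), and *Pdpn* was negative against *Dmp1* and *Phex* (r = −0.357 and −0.371). Among all genes tested, those most like *Dmp1* included *Phex* and *Spata13* (r = 0.929). Those most like *Phex* were *Col11a1* (r = 0.949), a fibrillar collagen chain, *Dmp1* and *Spata13* (r = 0.926). *Mepe* was most like *Gm47071* (r = 0.847), *0610010K14Rik* (r = 0.845) and *Il10rb* (r = 0.842). *Sost* was most like *Atp8b4* (r = 0.846), *Lamc3* (r = 0.823), a laminin chain, and *Pygl* (r = 0.814), the liver form of glycogen phosphorylase. *Pdpn* was most like *Cd248* (r = 0.919), a marker of stromal fibroblasts and pericytes, *C1qtnf7* (r = 0.890) and *Emilin2* (r = 0.882).

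The other SIBLING genes share the chromosome 5 cluster with *Dmp1* and *Mepe*. Of the 2 tested, 0 were called by edgeR or DESeq2, beside 23% and 22.3% of all genes, so 0 of 2 is near that background. Unadjusted, 1 had an edgeR p under 0.05, as had 5910 of the 15984 genes tested. *Spp1*, encoding osteopontin (chr5:104435118-104441050), stood at 781 ± 433.8 CPM in Control and 1551 ± 805.3 CPM in knockout (log2 fold change 0.99, SE 0.41, edgeR adjusted p = 0.0854). *Ibsp*, encoding bone sialoprotein (chr5:104299171-104311469), stood at 424 ± 292.6 CPM and 811 ± 511.8 CPM (log2 fold change 0.94, SE 0.54, adjusted p = 0.209). *Dspp* (chr5:104170712-104180127) did not pass the filter. *Mepe*, *Spp1* and *Ibsp* thus had values of 0.94 to 0.99, below the 1.79 of their neighbour *Dmp1*, though the differences among them were not tested.

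Among 15 genes of phosphate handling and FGF23 processing, 12 were tested, 5 were called higher and 1 lower, beside 12% and 11% of all genes, with a median log2 fold change of 0.39. *Vdr*, the vitamin D receptor, rose from 10.4 ± 6.85 CPM to 49.0 ± 33.9 CPM (log2 fold change 2.24, SE 0.44, edgeR adjusted p = 0.00222). *Galnt3*, whose product glycosylates FGF23 and shields it from cleavage, rose by a log2 fold change of 1.77 (SE 0.48, adjusted p = 0.0129). *Bmp1*, a protease that processes DMP1 and procollagen, rose by 1.24 (SE 0.23, adjusted p = 0.00164). *Fgfr1*, the FGF23 receptor chain, stood at 0.20 (SE 0.20, adjusted p = 0.487). *Slc20a2*, a phosphate transporter, was the gene called lower, at −0.41 (SE 0.11, adjusted p = 0.0114). With the muscle score as a covariate 3 genes of this list were called higher and 0 lower, and the calls lost included *Slc20a2* and *Galnt3* (1.16, adjusted p = 0.113). With the osteoclast score 0 were called in either direction, as were 0 of all genes tested. The FGF23 co-receptor *Kl* and the vitamin D hydroxylases *Cyp24a1* and *Cyp27b1* did not pass the filter. With the bone score added, 0 of the 12 were called by edgeR and 1 by DESeq2, beside 0.557% and 3.16% of all genes. These counts are near that background. Unadjusted, 4 had an edgeR p under 0.05, as had 2644 of the 15984 genes tested.

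Among 12 genes of sclerostin and Wnt signalling, 11 were tested, 1 was called higher and 1 lower, near the 12% and 11% of all genes, with a median log2 fold change of 0.03. *Lrp4*, which anchors sclerostin, rose from 55.2 ± 21.6 CPM to 122 ± 63.2 CPM (log2 fold change 1.14, SE 0.33, edgeR adjusted p = 0.0172), a call lost with the muscle score (0.565, adjusted p = 0.236). *Mef2c*, a transcription factor that also drives skeletal muscle genes, fell by 0.36 on the log2 scale (SE 0.10, adjusted p = 0.013), a call lost with library totals as the only scaling (−0.204, adjusted p = 0.0798) and with the muscle score (−0.29, adjusted p = 0.0824). *Lrp5*, the sclerostin-sensitive co-receptor, stood at 0.10 (SE 0.14, adjusted p = 0.621). The Wnt target *Axin2* stood at 11.8 ± 2.15 CPM and 11.7 ± 2.11 CPM (log2 fold change −0.01, SE 0.12, adjusted p = 0.963). It is named here after its value was seen.

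Among 7 partners of podoplanin, all were tested, 2 were called higher and 1 lower, beside 12% and 11% of all genes, with a median log2 fold change of 0.47. *Cd44*, a hyaluronan receptor that binds podoplanin, rose by 1.11 (SE 0.24, edgeR adjusted p = 0.00389). *Msn*, which encodes moesin, rose by 0.71 (SE 0.13, adjusted p = 0.00164). *Rdx*, which encodes the related radixin, fell by 0.32 (SE 0.10, adjusted p = 0.0259), a call lost with library totals alone (−0.157, adjusted p = 0.29), with the muscle score (−0.25, adjusted p = 0.16), without the filter and without Control 3, 4 or 8 in turn (−0.27, −0.31 and −0.24). *Cd9*, a tetraspanin, stood at 0.51 (SE 0.23, adjusted p = 0.118). These partners are expressed in many cell types, including osteoclasts.

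Of 13 further genes associated with osteocytes, all were tested, 5 were called higher and none lower, beside 12% and 11% of all genes, with a median log2 fold change of 0.78. *Mmp14*, a matrix metalloproteinase needed for osteocyte processes, rose from 125 ± 58.2 CPM to 429 ± 142 CPM (log2 fold change 1.78, SE 0.29, edgeR adjusted p = 0.00115). *Gja1*, which encodes the gap junction protein connexin 43, rose by 1.19 (SE 0.29, adjusted p = 0.00734). *Capg*, an actin-capping protein also found in macrophages, rose by 1.14 (SE 0.21, adjusted p = 0.00166). *Cd44* counts in this list as well. *Fam20c*, the kinase that phosphorylates SIBLING proteins, stood at 0.19 (SE 0.15, adjusted p = 0.382). With the bone score added, *Mmp14* was the 1 gene of the 13 still called by edgeR, at 0.95 (SE 0.19, adjusted p = 0.0395). There edgeR called 0.557% of all genes. DESeq2 called 5 of the 13, where it called 3.16% of all genes. With the osteoclast score as a covariate, edgeR called 0 of the 15984 genes tested and DESeq2 called 54. Of the 15984, 1299 had an unadjusted edgeR p under 0.05, among them 0 of the 6 osteocyte genes. In that edgeR fit *Lrp4*, *Ibsp* and *Spp1* turned to −0.25, −0.85 and −0.34.

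**Figure D5:**
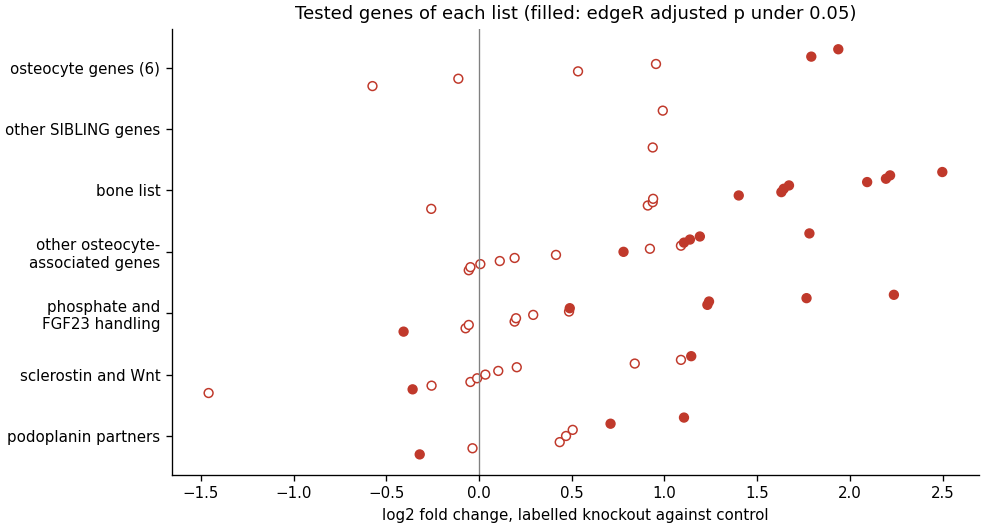
Log2 fold change of the tested genes of each list (horizontal axis, knockout against Control; 1 point per gene), with filled points for an edgeR adjusted p under 0.05. The osteocyte genes spread from −0.57 for *Fgf23* to 1.94 for *Phex*, and 8 of 12 bone genes and 5 of 12 tested phosphate genes are called higher.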

How the data were processed

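TMJ tissue of 8 Control and 12 knockout mice was profiled by RNA sequencing. The authors extracted total RNA with TRIzol, sequenced paired ends on an Illumina NovaSeq, trimmed reads with an in-house script and mapped them to mm10 (aligner, annotation release and use of strand not given in the sources used here). The deposited values are raw counts per Ensembl gene from featureCounts. Of 54532 genes, 54495 matched GENCODE M21 by identifier. Groups and replicate numbers came from the sample titles. Nothing states batches, and p-values measure the spread between these samples.

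Genes passing filterByExpr were compared with edgeR 4.0.16 in R 4.3.3 (TMM scaling, quasi-likelihood F-test, two-sided, Benjamini-Hochberg threshold 0.05), with the bone score as covariate in a second fit. The study used DESeq2, run here (1.42.0) as an alternative. CPM used TMM-scaled sizes, and log2 CPM a prior count of 2. Scores were compared by exact permutation over 125970 assignments. Relations used 40320 pairings (Control) or 100000 resamples (knockout). Libraries were compared for duplicates and none matched (smallest chi-square per degree of freedom 32.9 over 190 pairs). Floors of 3 counts cover counting error only. The procedure was tested on simulated data. There the covariate was drawn at random without regard to group, so a covariate that differs between groups, as the bone score does, was not tested.

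The genes and lists were chosen with earlier results of these data known. From each other list, the 3 called genes of largest fold change and the uncalled gene of highest mean CPM are named, with the 3 genes most like each osteocyte gene of at least 1 CPM. *Slc20a2*, *Axin2* and *Sp7* fall outside this rule. A gene that the rule names is not reported here. Alternatives were other scalings, filters and tests, score covariates, a replicate block and omission of libraries.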

Additional observations from a re-analysis of the deposited data

Results flagged for a closer look

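Within the 8 Control libraries, 14 sets of values (the 6 genes and 8 scores) were examined for a single library far from the rest, by Dixon's ratio at its 95% critical value. Chance gives about 1 such set in 20 where values are normally distributed, which was not tested. The 6 genes were examined as CPM and not on the log2 scale of the scores. *Sost* reached 44.1 CPM in Control 7, with the next library at 11.8 CPM. *Mepe* reached 30.4 CPM in the same library, with the next at 11.9 CPM. *Phex* reached 19.3 CPM in Control 5, with the next at 7.96 CPM. The tooth score was −1.01 in Control 1, with the next at −2.31, and that library held the highest *Amelx* count (225) and *Dspp* count (24). Groups of 12 were not examined in this way.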

How the results depend on the processing

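The calls of *Dmp1* and *Phex* kept their direction and passed the test under other scalings, filters, protein-coding genes alone, robust dispersion, DESeq2, the Y-linked or cartilage score as covariate and omission of the 3 libraries lowest in cartilage, and with each library left out in turn. The cartilage covariate, the omission of 3 libraries and the fit at equal bone score without a filter were chosen after seeing the data. The number of genes called was 0 with the osteoclast score (*Dmp1* −0.312, *Phex* −0.073, *Mepe* −0.550) and 0 with the muscle score (*Dmp1* 0.918, *Phex* 0.942, *Sost* 0.144). The osteoclast score also turned *Ibsp* (−0.850), *Spp1* (−0.338), *Fgfr1* (−0.242), *Lrp4* (−0.249), *Lrp5* (−0.089) and *Fam20c* (−0.084). Replicate numbers did not pair the libraries: r of deviations ran from −0.36 to 0.168, 2 of 8 pairs passed 0.1, and 0 matched their own number best. With the replicate block in 16 libraries 0 of the 6 genes were called (*Dmp1* 1.524, adjusted p = 0.203, *Phex* 1.811, adjusted p = 0.182), and in the same 16 libraries without the block *Dmp1* alone was (1.828, adjusted p = 0.0317; *Phex* 1.849, adjusted p = 0.0522), so 1 gene. Of 12 bone genes 2 were called higher with the block and 5 in those libraries without it, of the phosphate genes 3 and 4, and *Lrp4* was lost with the block (0.945, adjusted p = 0.165). Of all genes, 3673 were called, against 1786 with the block, 0 with the osteoclast score, 1196 with the muscle score and 2336 without the 3 libraries lowest in cartilage. Library totals as scaling moved the median of all genes to 0.12 and the share of calls that were higher from 52.2% to 72%.

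With each library left out, log2 fold changes ran from 1.561 to 2.013 for *Dmp1*, 1.721 to 2.442 for *Phex*, 0.782 to 1.591 for *Mepe*, −0.338 to 0.597 for *Sost*, −0.917 to −0.224 for *Fgf23* and 0.407 to 0.649 for *Pdpn*, with 2 to 3 genes called. *Mepe* at 1.591 and *Sost* at 0.597 are the values without Control 7. At equal bone score the ranges were −0.314 to −0.007, −0.519 to −0.152, −0.777 to 0.377, −0.919 to 0.232, −2.127 to −1.205 and 0.643 to 1.012, with 0 called. There *Mepe* turned to 0.377 without Control 7, 0.143 without Knockout 5 and 0.567 without the 3 libraries lowest in cartilage, *Sost* to 0.232 and 0.498 in the first and last of these, and *Dmp1* to 0.080 with collagens left out of the score. All-gene calls in that fit, 89, ran from 0 (without Knockout 5) to 507 (without Knockout 12) with a library left out, and were 429, 641, 159, 3 and 25 with collagens out of the score, DESeq2, no filter, the replicate block and the 3 libraries omitted. The bone score difference ran from 1.323 to 1.755. The relation of *Pdpn* to bone in knockout weakened to −0.519 with library totals (adjusted p = 0.137). A filter of 1 CPM removed *Fgf23*. *Loxl2* passed without Knockout 12 (0.738, adjusted p = 0.0313). The cause of these changes was not tested.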
